A study of Equus caballus with 6 samples.

Results

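Cell division is driven by cyclins, which switch on cyclin-dependent kinases (CDKs) in an ordered series, and by inhibitors, phosphatases and checkpoints that hold or release those kinases. In the testis the same machinery serves both the mitotic divisions of spermatogonia and the meiotic divisions of spermatocytes, while mature Sertoli and Leydig cells divide rarely. The genes described here are 46 cyclins, CDKs, CDK inhibitors, replication factors, mitotic kinases and spindle checkpoint genes. They were chosen by name, and a probe counted as a member if its annotation gave exactly 1 of these symbols. That found 50 probes of 43 genes among the 23472 probes of exactly 1 symbol on the array. CCND1 and CDKN2C had no such probe, and the probe of CDKN3 was annotated to several genes at once.

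The RNA came from the testicular parenchyma of 6 adult stallions kept on hay and horse feed and acclimated to a clinic for 10 days. The treated stallions received 0.1 mg/kg of dexamethasone intravenously and the controls the same volume of saline (n = 3 each), and testes were taken 12 h later. Dexamethasone acts through the glucocorticoid receptor as a synthetic steroid. Each stallion was read on 1 human CodeLink array, a 1-colour array of spotted probes, so horse transcripts met probes designed for human ones. All 46 symbols are also names of annotated horse genes, while the match of each probe to the horse sequence was not analysed here. A dim probe therefore does not show a low transcript.

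Of the 53423 probes present once, 42.5% to 47.8% were above background per array, and the normalised arrays correlated at 0.982 to 0.989 across probes. Levels below are log2 intensities after background correction and quantile normalisation, and differences are dexamethasone minus control on that scale. Probes above background on 0 arrays sat at a median of 6.01 on it, which is the floor against which a level should be read. The tissue label was set against marker genes, counting a gene as detected where 3 or more of the 6 arrays gave a probe of it above background. Detected were 9 of 10 spermatogonial, 12 of 15 spermatocyte, 13 of 17 spermatid, 9 of 14 Sertoli and 7 of 8 Leydig cell markers with a probe. NR5A1, PRM2, TNP1, PGK2 and SOX9, which are defining genes of Leydig cells, spermatids and Sertoli cells, were above background on fewer than 3 arrays. Of markers of other cells, 3 of 5 peritubular myoid, 3 of 5 endothelial, 2 of 4 macrophage, 6 of 7 lymphocyte and 1 of 2 erythrocyte genes were detected. The arrays read a mixed tissue, in which fewer cells of a type and less RNA per cell cannot be told apart.

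Most members gave signal above background in stallion testis, and a set of well-known division genes did not. Of the 43 genes, 30 (69.8%) had a probe above background on at least 3 arrays, against 58.2% of all 18278 genes with a probe of 1 symbol. For 24 genes it was above background on all 6 arrays. Another 12 were above background on 0 arrays, as were 32.6% of all genes. They were CCNA2 (cyclin A2, of S phase and mitotic entry), CCNB3 (a cyclin known from meiotic germ cells in mice), CDK1 (the kinase of mitotic entry), CDKN1B (a CDK inhibitor), PCNA (the sliding clamp of DNA replication), MCM3 (a subunit of the replicative helicase), KIF11 and KIF20A (mitotic kinesins), and BUB1, BUB1B, MAD2L1 and TTK (spindle checkpoint). CDK2, the partner of E and A cyclins, was above background in control replicate 3 only.

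The spot means show probes from either end of the range. The spot mean of the CDK1 probe was 1.31 to 1.59 times its local background over the 6 arrays, and that of CCNA2 1.07 to 1.49 times. On the same measure the MKI67 probe stood at 25.2 to 31.7 times its background, and that of WEE1 at 11.7 to 15.2 times. Near the threshold the ranges of detected and undetected genes overlapped. The probe of CDC25A, above background on 4 arrays, stood at 1.42 to 1.89 times. That of CDK2, above background on 1, stood at 1.27 to 1.74 times. MKI67 encodes the proliferation antigen Ki-67, and WEE1 the kinase that holds CDK1 inactive. Ratios of different probes do not rank the genes, because each probe binds with its own efficiency.

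**Figure D1:**
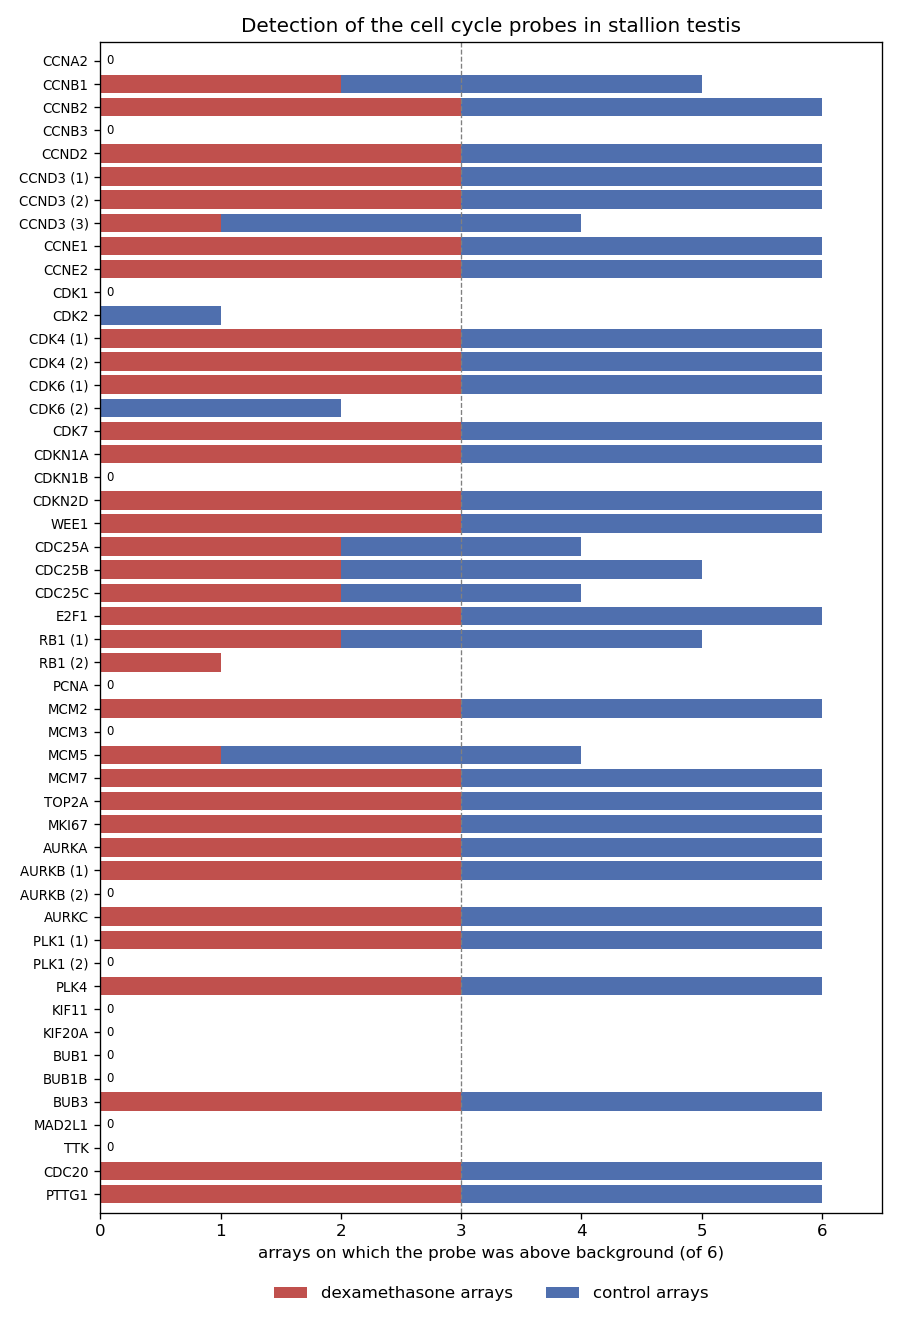
Number of arrays, of 6, on which each of the 50 cell cycle probes was above background, stacked by group and ordered by role, with the 3-array threshold dashed; numbers in brackets tell probes of 1 gene apart, the brightest first. 26 probes reached all 6 arrays and 14 reached 0, with few in between.

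Of the 6 genes with several probes, 4 had probes that disagreed on detection, while the probes of CDK4 and CCND3 were all above background on at least 4 arrays. PLK1, the polo-like kinase of mitotic entry, had a probe above background on all 6 arrays, between 11.37 and 11.62, and another above background on 0, between 5.94 and 6.05. AURKB, the kinase of the chromosomal passenger complex, also had a probe above background on 6 arrays and another on 0. For RB1, the retinoblastoma pocket protein, the counts were 5 and 1 arrays, and for CDK6, a partner of D cyclins, 6 and 2. The array missing for the first RB1 probe is dexamethasone replicate 1, where its spot carried the flag C. In PLK1, AURKB and RB1 the probe that gave signal was annotated to a GenBank record other than a RefSeq mRNA and the other to a RefSeq mRNA. Over the members, 7 of 8 probes of the former kind and 26 of 42 of the latter were above background on at least 3 arrays. Over all probes of 1 symbol the order was the other way, with 47.2% against 54.7%. Which of the probes reads the horse transcript was not tested.

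None of the 30 tested members passed limma's adjusted p of 0.05 in the comparison of dexamethasone with saline. Over all 24590 probes tested, 0.00407% passed, which is 1 probe, and 0% of the 10604 genes by their brightest probe. The smallest adjusted p of a member was 0.999. Without adjustment limma called 2 of the 30 at p under 0.05, CCND3 on the higher and MCM5 on the lower side. Of all genes tested, 3.87% were called that way, 1.76% higher and 2.1% lower. Members on the higher side numbered 18 and on the lower side 12, with a median difference of 0.01 against -0.01 over all genes tested. No member reached 1.5-fold, a size that 0.283% of all genes tested passed. The largest difference in size was 0.24, and the 95% intervals of all members lay between -0.46 and 0.51. The median absolute difference was 0.08 for the members and 0.07 for all genes.

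**Figure D2:**
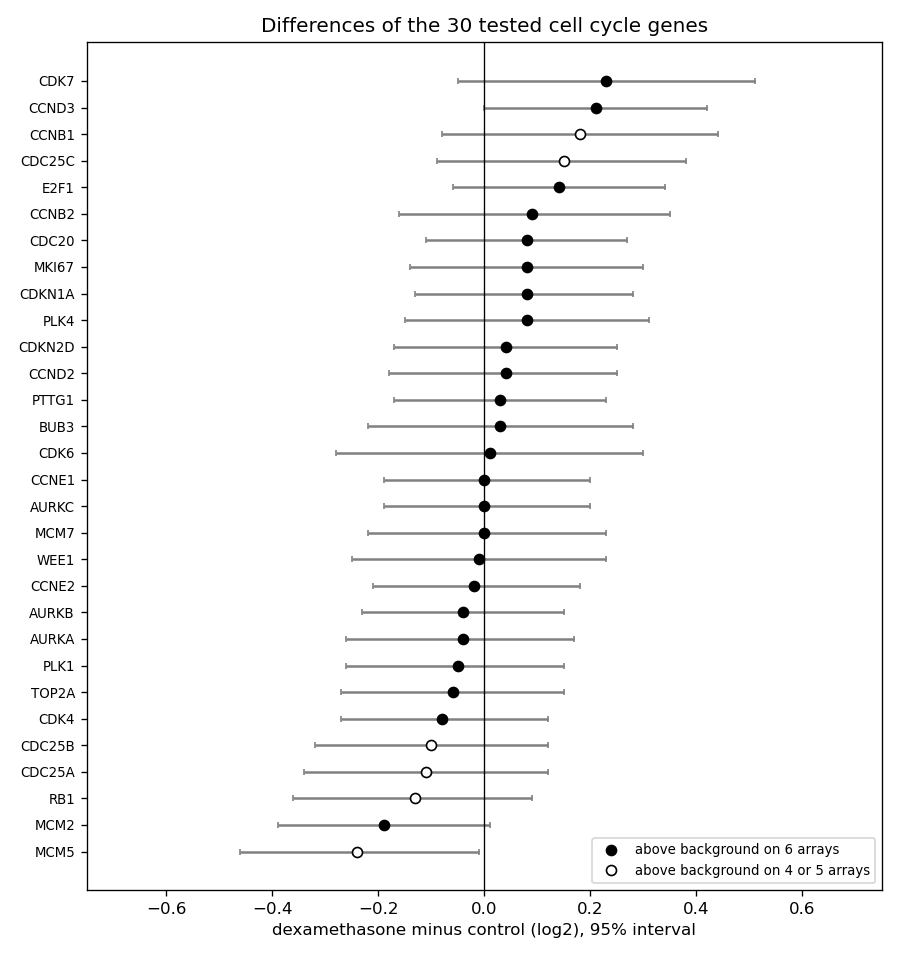
Dexamethasone minus control difference on the log2 scale with limma's 95% interval for the 30 tested cell cycle genes, by the brightest tested probe and ordered by size. All points lie between -0.24 and 0.23, and the interval of MCM5 is the one that ends below 0, at -0.01, while that of CCND3 starts at 0.00.

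Among the D cyclins, which answer growth signals and activate CDK4 and CDK6 in the first gap phase, CCND3 was the member that lay higher at the unadjusted threshold. Its brightest probe read 9.47, 9.63 and 9.42 in dexamethasone replicates 1 to 3 and 9.22, 9.25 and 9.41 in control replicates 1 to 3. The groups did not overlap, with the lowest treated stallion just above the highest control. The difference was 0.21 ± 0.09 (SE), with 9.51 ± 0.11 against 9.29 ± 0.10 (SD, n = 3 each). limma's unadjusted p was 0.0493 and its adjusted p 0.999. Blocking on the slide run moved the unadjusted p to 0.0623 and so ended this call. The difference was 0.31 within the run of 4 consecutive slide numbers and 0.01 within the run of 2. The other CCND3 probes did not share this difference. The second read 7.58, 7.46 and 7.34 in the treated and 7.57, 7.45 and 7.42 in the control stallions, and differed by -0.02 ± 0.09 (SE). The third differed by -0.11 ± 0.13 (SE). It was above background in 1 treated and 3 control stallions, so the controls alone carried it past the filter. With the mean of the 3 probes CCND3 differed by 0.03. CCND2, a D cyclin of spermatogonia in mice, read 7.42, 7.37 and 7.41 against 7.19, 7.49 and 7.41. Its groups overlapped, with a difference of 0.04 ± 0.10 (SE).

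The B cyclins carry the cell into division as partners of CDK1. CCNB1 read 7.24 and 7.31 in dexamethasone replicates 2 and 3, and 7.16, 7.22 and 6.91 in the controls. The spot of dexamethasone replicate 1 carried the flag C and was left out, so the difference of 0.18 ± 0.12 (SE) rests on 2 treated values. Kept, that spot read 7.18, and the groups overlapped. Without control replicate 3 the difference was 0.09. CCNB2 read 7.60, 7.83 and 8.02 in the treated and 7.64, 7.81 and 7.71 in the control stallions. Treated stallions were both the lowest and the highest here, and the difference was 0.09 ± 0.11 (SE).

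The E cyclins start DNA replication with CDK2. CCNE1 read 8.07, 8.24 and 8.13 in the treated and 8.07, 8.15 and 8.22 in the control stallions, a difference of 0.00 ± 0.09 (SE). CCNE2 read 6.59, 6.71 and 6.73 against 6.68, 6.77 and 6.62, with a difference of -0.02 ± 0.09 (SE). Neither separated the groups. The 95% interval was -0.19 to 0.20 for CCNE1 and -0.21 to 0.18 for CCNE2. Of the 6 tested cyclins, 5 lay higher and 1 lower, with a median of 0.06. Over all genes tested 47.3% lay higher. The 5 include CCNE1 at 0.00, and CCND3 by its brightest probe alone. Under median scaling CCND2, CCNE1 and CCNE2 lay lower, at -0.03, -0.1 and -0.04. CCNB1, CCNB2 and CCND3 lay higher there, at 0.1, 0.01 and 0.08, with a median of -0.09 over all genes tested.

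CDK7, the kinase that activates other CDKs and also phosphorylates RNA polymerase II, had the largest positive difference of the members in the setting reported. It read 10.04, 10.40 and 10.09 in the treated and 9.73, 10.06 and 10.04 in the control stallions. Dexamethasone replicate 2 was the highest and control replicate 1 the lowest, and the other 4 values, from both groups, lay between 10.04 and 10.09. The difference was 0.23 ± 0.13 (SE), at an unadjusted limma p of 0.0977. It was 0.12 without control replicate 1, also 0.12 without dexamethasone replicate 2, and 0.08 under median scaling. CDK4, the partner of D cyclins, was read by a pair of probes on all 6 arrays. The brighter gave 9.97, 9.88 and 9.81 in the treated and 10.04, 9.98 and 9.87 in the control stallions, a difference of -0.08 ± 0.09 (SE). The other gave -0.11 ± 0.09 (SE), the same direction as the first, and neither passed the test. CDK6 differed by 0.01 ± 0.13 (SE).

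CDKN1A, an inhibitor of several CDKs known as a target of p53 and, in other cell types, of glucocorticoids, read 7.12, 7.37 and 7.37 in the treated stallions. The controls read 7.22, 7.19 and 7.22. A treated stallion was the lowest of the 6 and the other treated ones the highest, and the difference was 0.08 ± 0.09 (SE, 95% interval -0.13 to 0.28). CDKN2D, an inhibitor of CDK4 and CDK6 expressed in mouse spermatocytes, read 7.73, 7.76 and 7.56 against 7.71, 7.54 and 7.69. It differed by 0.04 ± 0.09 (SE), with groups that overlapped.

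E2F1, a transcription factor of replication genes, read 7.93, 8.04 and 7.91 in the treated and 7.90, 7.69 and 7.87 in the control stallions. The groups did not overlap but nearly touched, and the difference was 0.14 ± 0.09 (SE). It was 0.08 without control replicate 2 and 0.05, with overlap, under median scaling. RB1, which binds and silences E2F factors, read 7.10 and 6.94 in dexamethasone replicates 2 and 3 and 7.12, 7.17 and 7.17 in the controls. Its spot in dexamethasone replicate 1 was flagged C and read 7.07 when kept, still below the controls. The difference without it was -0.13 ± 0.10 (SE). With CCND3 and CCNB1 these make 3 members higher and 1 lower in every treated stallion measured, 4 of 30, where the groups did not overlap for 9.33% of all genes tested, 4.26% higher and 5.06% lower. This count turned with the scaling: under median scaling 0 members were higher and 5 lower without overlap (CCNE1, MCM2, MCM5, RB1 and TOP2A), where 1.34% and 13.9% of all genes were. With the authors' scaled intensities 0 were higher and 2 lower, against 2.11% and 7.81% of all genes.

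The phosphatases that release CDKs from WEE1 lay close to background. CDC25C, of mitotic entry, read 6.55, 6.55 and 6.71 in the treated and 6.57, 6.26 and 6.54 in the control stallions, and was above background in 2 of 3 of each group. It differed by 0.15 ± 0.10 (SE). CDC25A and CDC25B differed by -0.11 ± 0.10 and -0.10 ± 0.10 (SE), again with values missing the background threshold on 2 and 1 arrays. WEE1 itself was bright enough on each of the 6 arrays and differed by -0.01 ± 0.11 (SE). The offset added in the background correction shrinks differences this close to background, and the differences of the dim genes are to be read as such.

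**Figure D3:**
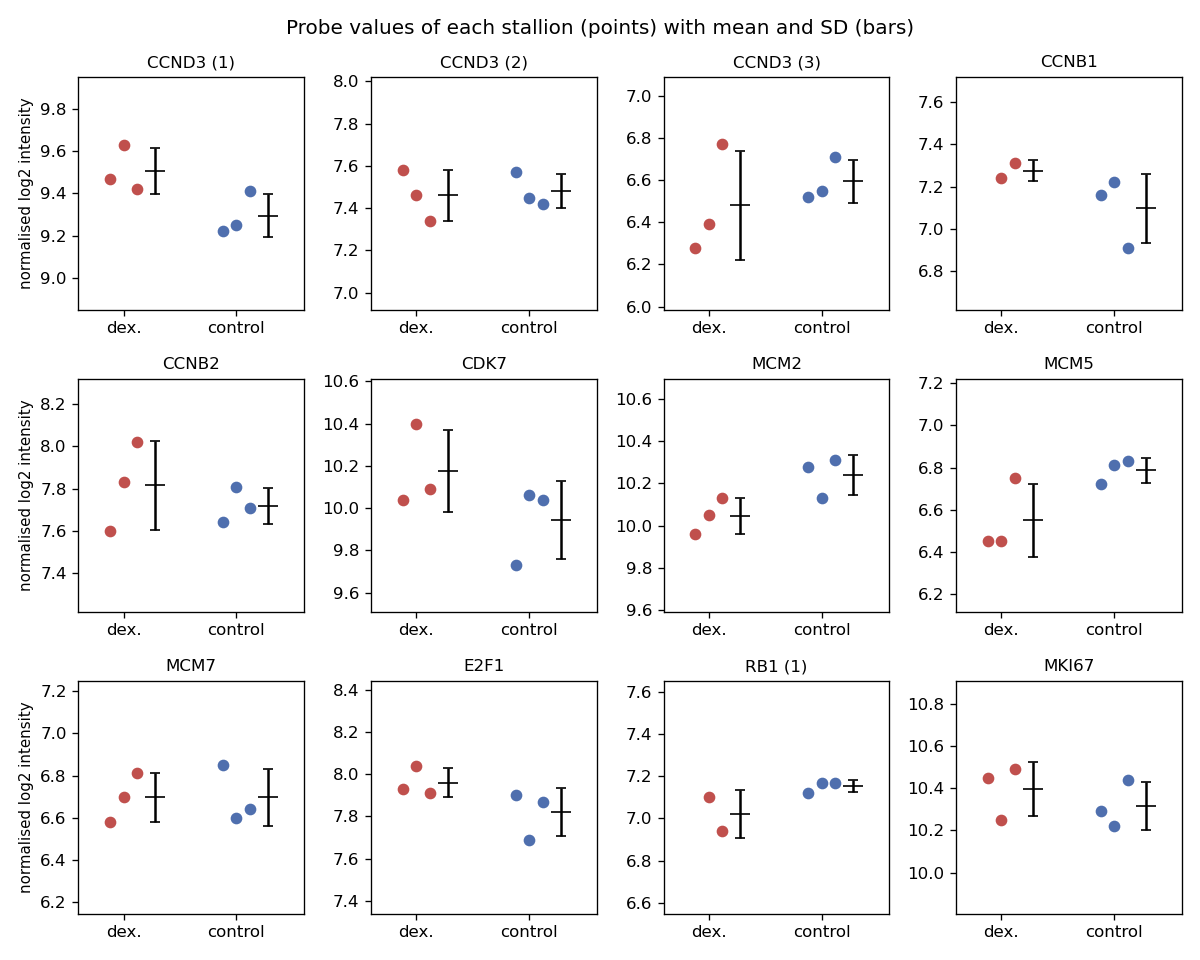
Normalised log2 intensity of each stallion for 12 probes of 10 genes, with mean and SD beside each group; every panel spans 1.1 log2 units around its own mean, and CCNB1 and RB1 lack dexamethasone replicate 1. CCND3 separates the groups on its brightest probe and overlaps on the other probes, and MCM2 and MCM5 lie lower in the treated stallions with 1 overlapping value each.

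The replication helicase MCM2-7 unwinds DNA at origins and is loaded before S phase. Its subunit MCM5 read 6.45, 6.45 and 6.75 in the treated and 6.72, 6.81 and 6.83 in the control stallions. Dexamethasone replicate 3 lay among the controls and the other treated stallions below them. The difference was -0.24 ± 0.10 (SE), with an unadjusted limma p of 0.0428 and an adjusted p of 0.999. MCM5 was above background in 1 treated and 3 control stallions, so the controls alone, where it lay higher, carried it past the filter. Its difference was -0.52 with plain background subtraction and -0.53 with the authors' scaled intensities, which lack the offset that shrinks differences near background. It was -0.31 within the run of 4 slides and -0.08 within the run of 2.

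MCM2, another subunit, was above background on all arrays. It read 9.96, 10.05 and 10.13 in the treated and 10.28, 10.13 and 10.31 in the control stallions. The highest treated and the lowest control stallion shared a value of 10.13. The difference was -0.19 ± 0.09 (SE, limma adjusted p = 0.999), and -0.20 and -0.17 within the runs of slides. MCM7, of the same complex, read 6.58, 6.70 and 6.81 against 6.85, 6.60 and 6.64. It had overlapping groups and differed by 0.00 ± 0.10 (SE).

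MCM6 and MCM4, subunits outside the member list, were tested too. MCM6 is named because it had the smallest limma p of 72 tested cell cycle genes outside the list, and MCM4 was added to it. MCM6 read 7.55, 7.68 and 7.70 in the treated and 7.77, 7.97 and 7.92 in the control stallions, with no overlap. Its difference was -0.24 ± 0.09 (SE, 95% interval -0.44 to -0.04), at an unadjusted limma p of 0.0236 and an adjusted p of 0.999. It was -0.25 and -0.22 within the runs of slides. MCM4 differed by 0.00 ± 0.08 (SE).

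MKI67 and TOP2A are both read as markers of cycling cells. MKI67 read 10.45, 10.25 and 10.49 in the treated and 10.29, 10.22 and 10.44 in the control stallions, and differed by 0.08 ± 0.10 (SE). TOP2A, the topoisomerase that untangles replicated chromosomes, read 9.04, 9.30 and 9.19 against 9.28, 9.28 and 9.16. It differed by -0.06 ± 0.09 (SE). Their 95% intervals were -0.14 to 0.30 and -0.27 to 0.15, and in neither gene did the groups separate.

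The Aurora kinases were read in all 6 stallions. AURKC, the germ cell member that serves the meiotic divisions, read 7.63, 7.59 and 7.72 in the treated and 7.63, 7.56 and 7.73 in the control stallions. The sets of values are nearly the same, and the difference was 0.00 ± 0.09 (SE, 95% interval -0.19 to 0.20). AURKA, of centrosomes and spindle poles, read 8.02, 8.11 and 8.30 against 8.11, 8.19 and 8.25 and differed by -0.04 ± 0.10 (SE). AURKB read 8.46, 8.32 and 8.30 against 8.37, 8.36 and 8.48 on its detected probe and also differed by -0.04 ± 0.09 (SE).

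PLK1 read 11.42, 11.44 and 11.50 in the treated and 11.62, 11.37 and 11.53 in the control stallions on its detected probe, a difference of -0.05 ± 0.09 (SE). PLK4, the kinase of centriole duplication, read 8.05, 8.39 and 8.31 against 8.16, 8.24 and 8.11 and differed by 0.08 ± 0.10 (SE). In both genes the groups overlapped. Neither kinesin of the list, KIF11 or KIF20A, was above background on any array.

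Of the 7 genes of the spindle checkpoint and anaphase, 3 were tested. CDC20, which activates the anaphase-promoting complex, differed by 0.08 ± 0.09, BUB3, a checkpoint protein, by 0.03 ± 0.11, and PTTG1, the securin that holds separase, by 0.03 ± 0.09 (SE). All 3 were above background on all arrays and had overlapping groups. CDC20 lay between 7.09 and 7.33, BUB3 between 7.26 and 7.62 and PTTG1 between 8.15 and 8.37 over the 6 stallions.

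Over the tested members the size of the difference had a median of 0.08, and its SE a median of 0.1. The SD within groups had a median of 0.11 over the tested members, from 0.07 to 0.20, against a median of 0.12 over all genes tested. CDK6 was the member with the widest spread. As a median over the 30 genes, the deviation of a stallion from the mean of all 6 was -0.05, 0.04 and 0.03 in dexamethasone replicates 1 to 3 and 0.00, 0.01 and 0.01 in the controls. By role the widest deviations were those of the CDKs in dexamethasone replicate 2, at 0.26 over 3 genes, and of the replication genes in dexamethasone replicate 1, at -0.16 over 5 genes. On the same measure spermatogonial markers ranged from -0.02 to 0.04 in the treated and from -0.07 to -0.02 in the control stallions. Spermatocyte markers ranged from -0.06 to 0.04 and from -0.05 to 0.07, and spermatid markers from -0.05 to -0.01 and from -0.07 to 0.03. Leydig cell markers lay from -0.11 to 0.00 in the treated and from 0.02 to 0.10 in the control stallions, over 7 genes. Peritubular myoid markers lay from -0.13 to 0.07 and from 0.06 to 0.09, over 3 genes, and Sertoli markers from -0.01 to 0.05 and from -0.05 to 0.07. The part of these cell types in the differences of the members was not tested.

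**Figure D4:**
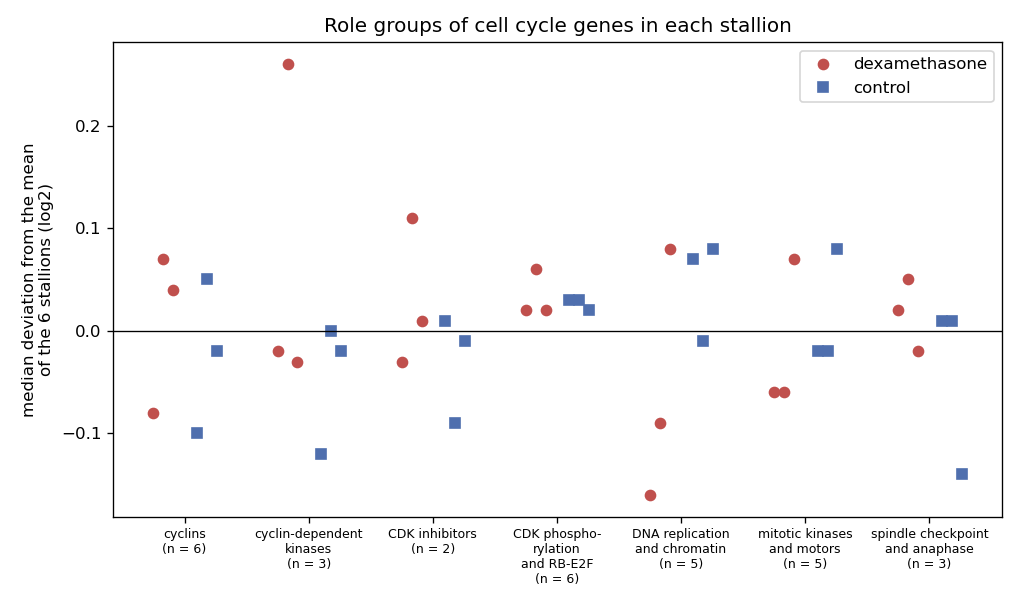
Median deviation of each stallion from the mean of the 6 stallions (log2) over the tested genes of each role group, with circles for dexamethasone and squares for control. Treated and control stallions overlap in every role group, and dexamethasone replicate 2 is apart for the 3 CDKs at 0.26.

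In the run of 4 slides, with 2 stallions of each group, 16 members lay higher and 14 lower with a median difference of 0.01. In the run of 2, with 1 stallion of each group, 18 lay higher and 12 lower with a median of 0.02.

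A wider list of 138 other cell cycle genes, listed with earlier results known, was set beside the members. A probe was present for 132, and 72 were above background on at least 3 arrays and tested (54.5%). None passed limma's adjusted p, 1 passed the unadjusted one, which was MCM6 on the lower side, and 29 lay higher and 43 lower with a median of -0.03. Over all genes tested, 3.87% passed the unadjusted threshold and 47.3% lay higher. Groups without overlap were seen in 3 genes on the higher and 7 on the lower side, against 4.26% and 5.06% of all genes. Medians by family ran from -0.14 over 3 genes of cytokinesis to 0.06 over 6 other cyclins, with -0.08 over 7 genes of cohesin and condensin and -0.02 over 11 of replication licensing and synthesis.

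CCNA1, the cyclin A of germ cells, which mouse spermatocytes need to complete meiosis, was above background on all 6 arrays. It read 8.69, 8.73 and 8.89 in the treated and 8.53, 8.51 and 8.68 in the control stallions. The groups did not overlap, by 0.01, and the difference was 0.19 ± 0.09 (SE, limma adjusted p = 0.999). It was 0.19 and 0.21 within the runs of slides. Under median scaling it was 0.07 and with the authors' scaled intensities 0.14, both with overlapping groups. The somatic counterpart CCNA2 had no value above background to set beside it.

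None of the remaining genes named by smallest p passed limma's adjusted p. SGO2, the shugoshin that protects centromeric cohesion in meiosis, differed by -0.19 ± 0.09 (SE), and E2F8, an atypical E2F repressor, by -0.16 ± 0.08. CIT, the citron kinase of cytokinesis, differed by -0.14 ± 0.08 and a second probe of it by -0.20 ± 0.09 (SE). FBXO5, an inhibitor of the anaphase-promoting complex, differed by 0.16 ± 0.09, CDC16, a subunit of that complex, by 0.16 ± 0.09 and CENPE, a kinetochore motor, by 0.17 ± 0.09 (SE). In SGO2, E2F8, CIT and FBXO5 the groups did not overlap, and in CDC16 and CENPE they did. Under median scaling FBXO5 differed by 0.01, with overlapping groups, and CDC16 by 0.02, and without control replicate 2 FBXO5 differed by 0.08. KIF4A, a chromokinesin, was above background in the 3 controls and in none of the treated stallions, at 6.53 against 6.37. It was thus tested through the controls alone, and its 95% interval of -0.34 to 0.02 includes no difference. The treated mean stayed at 6.37 with values raised where lower to the dimmest value above background on the same array. The ratio of 1.12-fold is thus the estimate itself and no lower bound on it (limma adjusted p = 0.999). A second KIF4A probe was above background on 0 arrays. SKP2, which marks CDKN1B for destruction, differed by -0.37 ± 0.20 (SE), but by -0.11 to -0.56 without each stallion in turn, with control replicate 1 at 7.69 far above the rest.

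The unadjusted calls depended on single stallions and on the processing. CCND3, by its brightest probe or the mean of its probes, kept its direction in all 18 alternative settings, from 0.03 to 0.27. It passed the unadjusted threshold in 5 of them. The third CCND3 probe lay lower in all 16 alternatives that tested it, from -0.33 to -0.01, and the second ran from -0.09 to 0.04. MCM5 kept its direction in all 17 that tested it, from -0.53 to -0.19, and passed in 12. MCM2 did so from -0.35 to -0.15 in 18, and passed in 3. Settings that change only the filter or the variance estimate repeat the reported difference, so they could not turn these directions. Leaving out a stallion could not turn that of CCND3 either, because the groups of its brightest probe do not overlap. No member passed limma's adjusted p in any of these settings, where the smallest adjusted p was 0.663. CCND3 was no longer past the unadjusted threshold without control replicate 1 or 2 or dexamethasone replicate 1 or 2, at 0.18, 0.19, 0.23 and 0.15. MCM5 was not past it without control replicate 2 or 3 or dexamethasone replicate 1 or 2, at -0.22, -0.22, -0.19 and -0.19. MCM6 kept groups without overlap in all 18 alternatives. For most of them this was fixed in advance. Leaving out a stallion, or changing only the filter, probe mean, weights or fit, cannot bring overlap to its single probe.

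**Figure D5:**
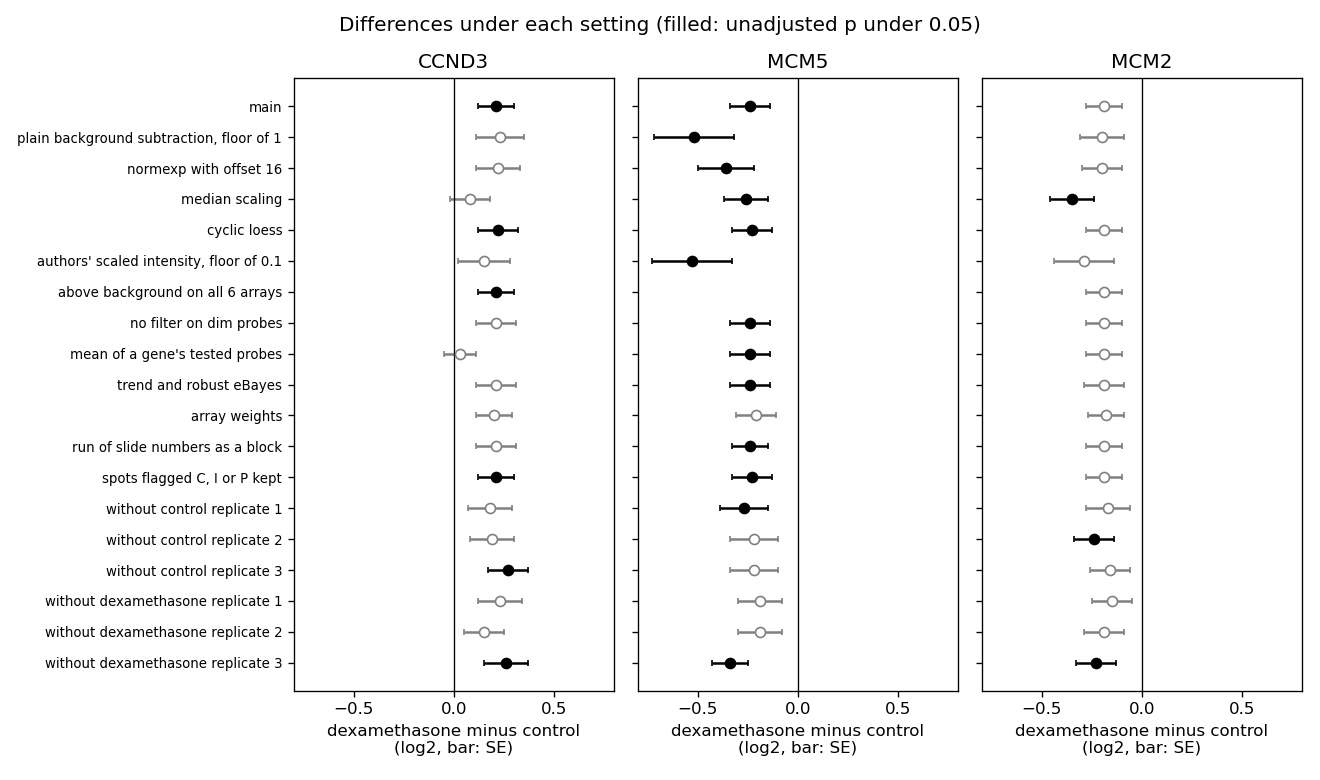
Dexamethasone minus control difference (log2, bars are SE) of CCND3, MCM5 and MCM2 under the setting reported and each alternative, filled where limma's unadjusted p was under 0.05; MCM5 is not tested where all 6 arrays must be above background. CCND3 falls to 0.03 with the mean of its probes, and MCM5 goes to -0.52 and -0.53 with background subtraction and the authors' values.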

How the data were processed

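Per the labels' protocols, total RNA was prepared with Tripure, labelled by the CodeLink manual cRNA protocol and read as Alexa-647. The software that read the scans is not given in the sources used here. Deposited files give, per the file headers, each spot's mean intensity and the median intensity of its local background, a flag and a signal strength, a score that is at most 1 where the flag holds L. The authors' scaled intensity was an alternative only, and the deposited table of the whole series repeats it exactly where a spot had a value.

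A spot was above background where its flag held none of the letters L, M, C, I and P. Spots with C, I or P thus counted as not above background at any intensity, as for CCNB1 and RB1 in dexamethasone replicate 1. Spots flagged M had no value, and spots flagged C, I or P, letters the files do not explain, were treated as missing. Probe names printed more than once were left out. Intensities were corrected with normexp (offset 50), quantile normalised and taken to log2, and tested with lmFit and eBayes of limma 3.58.1 in R 4.3.3, without covariates. Tested were 24590 probes above background on at least 3 of 6 arrays with at least 2 values per group, with Benjamini-Hochberg adjustment over all. A gene stands for its brightest tested probe. Replicate numbers follow the order of the samples. Each array is 1 stallion, and their number limits precision: with 3 against 3 an exact two-sided permutation test cannot go below 0.1. The test was tried on simulated data. Figures used matplotlib 3.10.9 in Python 3.11.15.

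Members and lists were chosen with earlier results of these data known. Named are all members, with all values for those at an unadjusted p under 0.05, with groups that do not overlap or in a fixed list, and CDK7, MCM2 and MCM7, added after their values were seen. Of the related genes, the 10 with the smallest p, CCNA1 among them, are named, and MCM4 was added. Gene names came from the platform's annotation. Probe, promoter and protein sequences were not used here, so no promoter motifs were searched. The runs of slides are stretches of consecutive slide numbers in the file names.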

Additional observations from a re-analysis of the deposited data

How the results depend on the processing

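The count of members past limma's adjusted p stayed at 0 in all 18 alternatives, and the number above background was 24 when all 6 arrays were required and 30 in the other alternatives that touch it. Members past the unadjusted p numbered 2, and 1 with plain background subtraction, normexp with an offset of 16, the authors' values, the filter of all 6 arrays, the mean of a gene's probes, trend and robust eBayes or the slide run as a block, and 0 with array weights. The share of all genes tested past it was 3.74% to 4.29% in the settings with all 6 stallions, apart from 8.1% under median scaling. Without each stallion in turn 0 to 3 members passed it, against 3.06% to 5.43% of all genes tested. CCND3 and MCM5 both passed it with cyclic loess, with flagged spots kept and without dexamethasone replicate 3. The median difference of the members was 0.01, and -0.06 under median scaling and -0.03 with the authors' values, where the median of all genes tested was -0.09 and -0.07, and it was -0.01 to 0.04 without each stallion in turn. Relative to all genes the members' median lay 0.00 to 0.04 higher in every setting. Median scaling put 8 members higher and 22 lower, and the authors' values 11 and 19, against 18 and 12. Of 530 member values under alternatives 42 had the other sign, and 14 of 30 members had none. The 530 include settings that change only the filter or the variance estimate, which repeat the reported difference and could not turn a sign. The causes were not tested. Dim probes such as MCM5 and the CDC25 genes limit what can be read. No paired analysis was possible because the labels give no replicate numbers shared between the groups.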

Other observations

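Some related cell cycle genes varied widely between the arrays. FZR1, an activator of the anaphase-promoting complex, read 9.09, 8.93 and 8.20 in dexamethasone replicates 1 to 3 and 9.29, 9.27 and 8.09 in control replicates 1 to 3. The low values of 8.20 and 8.09 are the 2 arrays of the second run of slide numbers, 1 of each group. Stallion and slide run cannot be told apart here. The difference of FZR1 between the groups was -0.14 ± 0.32 (SE). NCAPG, a condensin subunit, read 9.77, 10.75 and 10.25 in the treated and 10.48, 10.28 and 10.56 in the control stallions, so that treated stallions were both the lowest and the highest. NEK2, a centrosomal kinase, read 9.16, 9.55 and 10.00 against 9.85, 9.66 and 9.52. These 3 genes were picked after their values were seen.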
